A study of Sus scrofa with 61 samples.

Results

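ATF4 is a transcription factor that cells make when amino acids run short or proteins misfold. The kinases of eIF2alpha then slow translation as a whole while ATF4 mRNA is translated more, so that the level of ATF4 mRNA is only a partial reading of ATF4 activity. Among the genes it switches on are the enzymes that make serine, glycine and asparagine, the mitochondrial folate enzymes and a few feedback and stress genes, and in a growing muscle these enzymes feed protein, nucleotide and glutathione synthesis. The genes described here are ATF4 itself and 9 of its classical targets, 10 genes in all: PHGDH, PSAT1 and PSPH, which carry out the successive steps of serine synthesis; SHMT2 and MTHFD2, the mitochondrial enzymes that pass a carbon unit from serine to folate; ASNS, which makes asparagine; and CHAC1, TRIB3 and DDIT3 of the stress branch. A probe was taken for a gene when the array or the study's gene lists gave it that symbol. This found 23 probes for 9 of the 10 genes, of 60305 probes on the array. TRIB3 had no probe under this rule.

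The muscle was longissimus from 61 male pig fetuses, each hybridised to its own single-colour array. Fetuses came from 4 genotypes, namely Large White (LW), Meishan (MS), and their reciprocal crosses LWMS (LW boar, MS sow) and MSLW (MS boar, LW sow), and were taken at gestational day 90 or day 110, shortly before birth. Newborn survival is higher in MS than in LW, and the study asked how muscle matures over this last period in each. Each genotype had 8 fetuses at day 90. At day 110 there were 9 of LW, 7 of MS, 8 of LWMS and 5 of MSLW, and fetuses are named by their number in the labels (Fetus407). The sows were inseminated with mixed semen of both breeds, so that a litter could hold purebred and crossbred fetuses; the labels do not give the sow of a fetus. Littermates therefore counted as separate fetuses. The adjusted p-values measure the spread between fetuses, pooled over all 8 groups, whatever litter they came from.

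Each value below is a log2 intensity after quantile normalization of the 61 arrays. Probes had to be well above background, as the scanner software marks it, in 80% or more of the arrays from some group, which held for 42436 probes and for 22 of the 23 probes of these genes, covering 8 genes. The probe lost was the only one of MTHFD2. Per array, between 34346 and 45683 probes were well above background. Of the 8 skeletal muscle fibre markers listed (ACTA1, CKM, MYLPF and others), all 8 were well above background on all 61 arrays. For each gene the kept probe with the highest mean was its main probe, and a difference was called when limma's moderated test gave a Benjamini-Hochberg adjusted p under 0.01 over all kept probes. Levels of different probes are not on a common scale, so each probe is compared only with itself.

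The array's probes are 60 bases long, and their sequences show what was measured. The main finding is carried by PHGDH and ASNS, and the only ASNS probe and the 2 further PHGDH probes are shown 5′ to 3′ as deposited. The main probe of PHGDH, O5437, is not shown. Capitals in all the sequences mark bases that a different probe of the array also holds, on either strand, in an unbroken run of at least 20 bases; the first 3 and the PSAT1 probe have no such run.
PHGDH A_72_P440266: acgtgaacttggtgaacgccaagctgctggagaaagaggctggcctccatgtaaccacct
PHGDH A_72_P634609: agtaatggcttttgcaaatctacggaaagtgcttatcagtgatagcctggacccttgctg
ASNS O91: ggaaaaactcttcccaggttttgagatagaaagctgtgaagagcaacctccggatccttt
PSAT1 O14665: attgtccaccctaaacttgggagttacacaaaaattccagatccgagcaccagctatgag
DDIT3 A_72_P440751 and O11871: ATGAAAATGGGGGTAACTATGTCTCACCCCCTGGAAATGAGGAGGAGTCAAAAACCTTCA
The pair of DDIT3 probes is 1 sequence spotted under 2 names, and the main probe of PSAT1 was likewise identical over 60 bases to a probe that the array names LOC100154160. That number is the RefSeq gene ID of pig PSAT1 (table of assembly Sscrofa11.1), and 5 kept probes bear it without being named PSAT1 by any list, the identical probe among them. The main probe of DDIT3, not shown, shares 20 bases on the opposite strand with a probe of MARS, the methionyl-tRNA synthetase gene.

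For SHMT2, MTHFD2 and CHAC1 the sequences limit what can be read from the values, and they are shown for that reason.
SHMT2 O8926: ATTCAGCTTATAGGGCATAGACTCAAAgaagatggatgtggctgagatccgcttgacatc
LOC100514459 A_72_P566604: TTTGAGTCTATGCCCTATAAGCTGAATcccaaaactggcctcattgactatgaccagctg
SHMT2 A_72_P717188: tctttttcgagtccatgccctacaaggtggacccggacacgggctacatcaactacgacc
MTHFD2 O1189: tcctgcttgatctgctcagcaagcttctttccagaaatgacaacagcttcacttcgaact
CHAC1 O12748: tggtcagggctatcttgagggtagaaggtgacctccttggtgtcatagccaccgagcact
The 27 capital bases of O8926 are the reverse complement of those of A_72_P566604, and O8926 has no open reading frame as written but has 1 on the other strand. A_72_P717188, the main probe of SHMT2, matched A_72_P566604 at 40 of 55 aligned bases (72.7%), and O8926 read on its other strand matched A_72_P717188 at 25 of 32 (78.1%). Which transcript each of these 3 probes reads is not settled here. For O1189 and O12748 the strand is not settled either: O1189 has 2 open reading frames as written and 2 on the other strand, and O12748 has 1 and 2, so that the CHAC1 values below stand under the array's name only. The values of SHMT2 below are those of A_72_P717188 under the array's name, with A_72_P566604 beside them.

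PHGDH and ASNS gave the largest differences of the 8 measured genes. Between day 90 and day 110 both fell in LW muscle, by 3.81-fold and 3.33-fold, whereas in MS muscle ASNS rose and the change of PHGDH was upward without passing the test. At day 110 they were 4.15-fold and 4.77-fold higher in MS than in LW fetuses, the ASNS values being smaller under other background handling. PSPH was also higher in MS at day 110, PSAT1 fell with age in LW and, with a call that 6 of 12 processing alternatives lost, in MS, and no difference in ATF4 mRNA between the breeds was called at either age.

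PHGDH is the first and committed enzyme of serine synthesis. In LW its main probe, O5437, lay between 11.83 and 12.68 at day 90 with a median of 12.31, and between 9.43 and 11.47 at day 110 with a median of 10.20. In MS it lay between 11.38 and 11.95 (median 11.76) at day 90 and between 10.93 and 13.34 (median 12.72) at day 110. Every LW fetus of day 110 was below every LW fetus of day 90, while 5 of 7 MS fetuses of day 110 were above all 8 of day 90 and the other 2 were below them. The log2 difference between day 110 and day 90 in LW was -1.93 (SE 0.26, adjusted p = 7.34e-09), a fall of 3.81-fold. In MS it was 0.65 (SE 0.28), which did not pass the threshold (adjusted p = 0.0389), though it was called with scaling to the 75th percentile (0.90) and with the mean over probes (0.85).

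The other 2 PHGDH probes moved alike. Over the 3 probes, the LW change ran from -1.93 to -1.22 and was called for all 3, and the MS change ran from 0.65 to 1.06 and was called for A_72_P440266 alone (adjusted p = 0.00321). The low MS fetuses of day 110 were Fetus407 at 11.22 and Fetus624 at 10.93. Without Fetus407 the MS change of the main probe was 0.84 (adjusted p = 0.00764), and without Fetus624 it was 0.89 (adjusted p = 0.00365).

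ASNS makes asparagine from aspartate and glutamine. Its only probe, O91, lay between 6.65 and 7.75 in LW at day 90 (median 7.37) and between 4.61 and 6.82 at day 110 (median 5.52). In MS it lay between 6.43 and 7.55 at day 90 (median 7.02) and between 6.56 and 8.43 at day 110 (median 8.15). The LW change was -1.73 (SE 0.26, adjusted p = 6.97e-08), a fall of 3.33-fold, with 8 of 9 LW fetuses of day 110 below all those of day 90. The MS change was 0.85 (SE 0.28, adjusted p = 0.00609), a rise of 1.80-fold, with 6 of 7 MS fetuses of day 110 above all those of day 90. Leaving out MS Fetus409, Fetus607, Fetus617 or Fetus632 moved the MS change to between 0.76 and 0.81 and its adjusted p to between 0.0132 and 0.0184, so that it was no longer called. The size of the LW fall depended on the background handling, at -1.24 with the median signal, -1.23 in the deposited values and -0.98 with normexp correction, all called.

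PSPH carries out the last step of serine synthesis. Its main probe, A_72_P181326, lay between 9.21 and 9.69 in LW at day 90 (median 9.47) and between 7.48 and 9.30 at day 110 (median 8.13). In MS it lay between 9.47 and 9.96 at day 90 (median 9.61) and between 8.33 and 10.11 at day 110 (median 9.02). The LW change was -1.30 (SE 0.23, adjusted p = 2.17e-06), a fall of 2.46-fold. The MS change was -0.55 (SE 0.24, adjusted p = 0.0416), which did not pass, though without MS Fetus409 it was -0.72 and was called (adjusted p = 0.00851). In LWMS PSPH fell by 1.16 on the log2 scale, at -1.16 (SE 0.23, adjusted p = 2.32e-05). Its second probe, O10606, was dim and was well above background on 0 of the 9 LW arrays of day 110, against 4 of 7 MS arrays. There its MS mean was 1.26-fold higher than the detection floor of the LW arrays (adjusted p = 2.71e-05 in the fit), and its deviations had r = 0.33 with those of the main probe. In LWMS its change was 0.30, opposite to the main probe, and was not called. O10606 passed the filter only through MSLW at day 110, with 4 of 5 arrays well above background.

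PSAT1 carries out the middle step. Its main probe, A_72_P371833, lay between 10.44 and 11.08 in LW at day 90 (median 10.87) and between 9.24 and 10.21 at day 110 (median 9.74), without overlap. In MS it lay between 9.43 and 10.98 at day 90 (median 10.50) and between 8.71 and 10.81 at day 110 (median 9.37), with much overlap. The LW change was -1.07 (SE 0.21, adjusted p = 1.25e-05), a fall of 2.10-fold. The MS change was -0.64 (SE 0.22, adjusted p = 0.0095). It lost its call when MS Fetus407, Fetus624, Fetus627 or Fetus632 was left out, at values between -0.59 and -0.48 with adjusted p between 0.0225 and 0.0519. The call was also lost under 6 of 12 processing alternatives, at -0.64 to -0.56 with adjusted p from 0.0104 to 0.021. In LWMS, where the ages did not overlap either, it was -1.05 (SE 0.21, adjusted p = 2.42e-05). Over the 3 PSAT1 probes taken by the rule, the LW change ran from -1.21 to -0.91 and was called for all 3. Their MS change ran from -0.91 to -0.31, smallest for O14665, and was called for 2 of 3. The 5 probes named by the RefSeq ID fell too, with LW changes from -1.16 to -0.99 and MS changes from -0.86 to -0.55, all 5 called in both breeds.

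**Figure D1:**
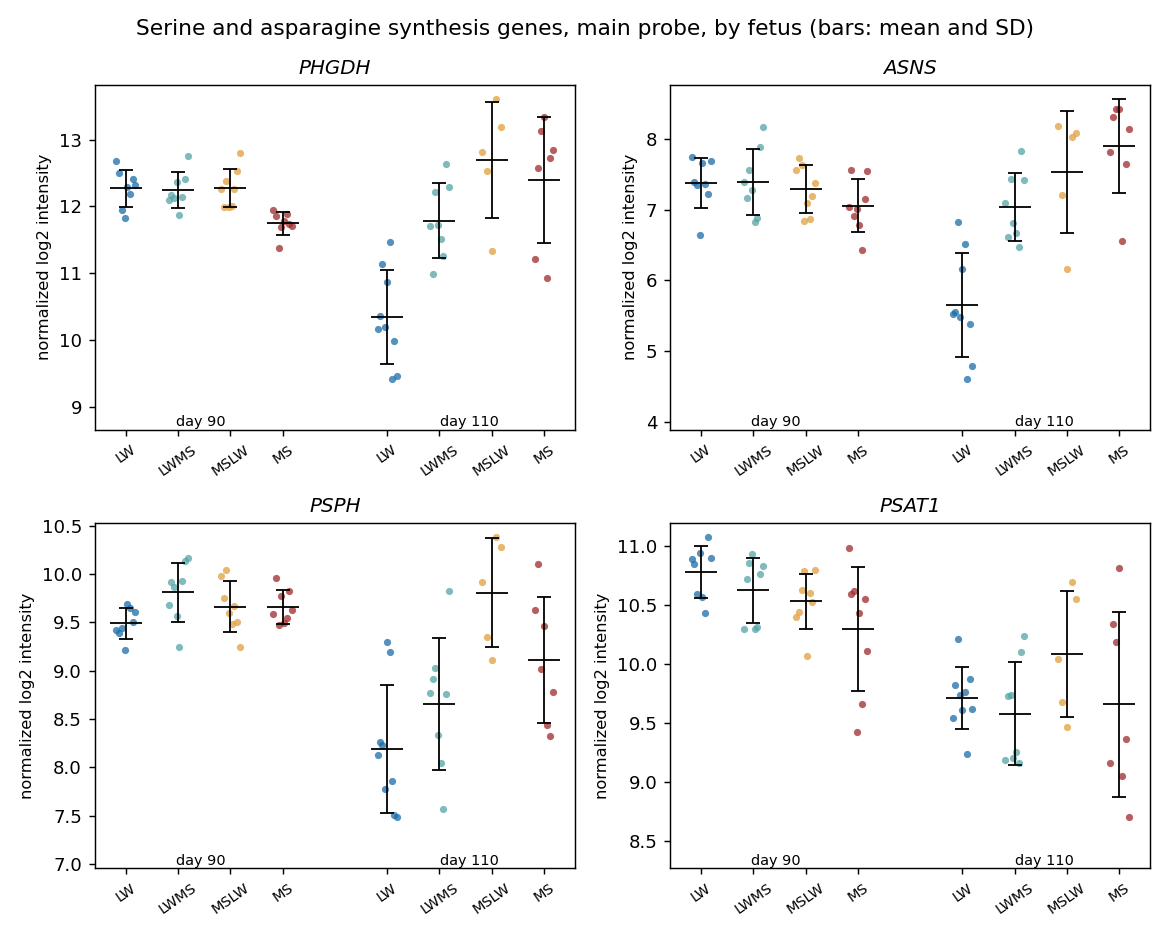
Normalized log2 intensity (vertical axis) of the main probes of PHGDH, ASNS, PSPH and PSAT1 in each fetus (points) by genotype and gestational day (horizontal axis), with the mean and SD of each group (black bars). At day 90 LW and MS overlap for all 4 genes, and at day 110 LW lies lowest for PHGDH (mean 10.34) and ASNS (mean 5.65).

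ATF4 mRNA itself rose with age, by an amount that depended on the probe. Its main probe, O139, lay between 15.10 and 15.57 in LW at day 90 (median 15.34) and between 15.23 and 15.93 at day 110 (median 15.79). In MS it lay between 15.42 and 15.67 at day 90 (median 15.52) and between 15.26 and 16.23 at day 110 (median 15.58), the later group spanning the whole of the earlier. The change was 0.40 in LW (SE 0.09, adjusted p = 0.000317), 0.31 in LWMS (SE 0.10, adjusted p = 0.00511) and 0.46 in MSLW (SE 0.11, adjusted p = 0.000588). In MS it was 0.16 (SE 0.10, adjusted p = 0.155). The LWMS call was lost without LWMS Fetus609, Fetus872 or Fetus874 (0.27 to 0.30, adjusted p from 0.0105 to 0.0182). All 7 ATF4 probes were called higher at day 110 in LW (0.39 to 0.86), LWMS (0.31 to 0.86) and MSLW (0.46 to 1.07). In MS 5 of 7 passed, and the 7 ran from 0.16 to 0.96. The main probe gave the smallest change of the 7 in MS, LWMS and MSLW. Under scaling of the arrays to their 75th percentile the main probe was called in MS as well (0.82, adjusted p = 4.81e-10). None of the 7 passed between MS and LW at either day or in the difference of age changes.

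DDIT3, also called CHOP, is a transcription factor of the later stress response. Its main probe, A_72_P157561, lay between 9.64 and 10.03 in LW at day 90 (median 9.84) and between 9.85 and 10.75 at day 110 (median 10.14). The MS values were between 9.33 and 10.07 at day 90 (median 9.83) and between 9.14 and 10.01 at day 110 (median 9.72). Neither age change passed, at 0.30 for LW (SE 0.12, adjusted p = 0.0297) and at -0.10 for MS (SE 0.13, adjusted p = 0.491). The twin probes A_72_P440751 and O11871 gave 0.56 at most in MSLW, where both were called. Between O11871 and A_72_P440751, which share a sequence, deviations from group means correlated at r = 0.89 over 61 fetuses, whereas over the 3 pairs of DDIT3 probes the lowest r was 0.30.

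CHAC1 degrades glutathione. Its only probe was near the detection limit and was well above background on 0 of 8 LW and 3 of 8 MS arrays at day 90, and on 2 of 9 LW and 5 of 7 MS arrays at day 110. It lay between 1.85 and 3.90 in MS at day 90 (median 3.66) and between 3.92 and 5.35 at day 110 (median 4.93), without overlap. The change in MS was 1.30 (SE 0.35, adjusted p = 0.000997), but with normexp correction it was 0.26 and not called (adjusted p = 0.0473). The probe passed the filter only through MSLW at day 110, with 4 of 5 arrays well above background against 1 of 8 at day 90, so the MSLW means of 3.36 and 4.76 are given as a description. In LW it lay between 2.39 and 3.91 at day 90 and between 3.18 and 7.27 at day 110 (median 3.84), and day 90 gives only a bound. The mean of 4.11 at day 110 was 1.40-fold higher than the detection floor of day 90, with an adjusted p of 0.02 in the fit. This ratio is no lower bound on the change, since only 2 of 9 arrays of day 110 were well above background. LW Fetus850 stood at 7.27, where the next was at 4.20. The fitted LW difference of 0.87 fell to 0.48 (adjusted p = 0.106) without Fetus850 and passed without LW Fetus575 (0.99, adjusted p = 0.00975), against a day-90 group with no array above background.

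The SHMT2 probe A_72_P717188 was low as well, with group means between 4.38 and 5.66. It rose by 0.83 in MS (SE 0.27, adjusted p = 0.0059) and by 0.83 in LWMS (SE 0.26, adjusted p = 0.00493). The MS values lay between 2.15 and 5.36 at day 90 (median 4.78) and between 4.59 and 5.54 at day 110 (median 5.18), with overlap. In LW its means were 4.88 and 5.62, a difference of 0.74 (SE 0.25) that missed the threshold (adjusted p = 0.0103). Under 4 of 11 processing alternatives the MS change was not called (0.21 to 0.83, adjusted p from 0.0214 to 0.0252), and under 6 of 11 the LW change was. The MS call was lost without MS Fetus409, Fetus617 or Fetus627 (0.77 to 0.79, adjusted p from 0.0123 to 0.0143), the LWMS call without LWMS Fetus411, Fetus611, Fetus622 or Fetus630 (0.77 to 0.79, adjusted p from 0.01 to 0.0122), and the LW change was called without LW Fetus557 or Fetus575 (0.83 and 0.82, adjusted p 0.00531 and 0.00631). The other SHMT2 probe, O8926, was called in no genotype, with changes from -0.09 to 0.36. MTHFD2 was read by a probe whose group means ran from 1.68 to 2.21, and which failed the filter, so that nothing can be said of its mRNA.

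A_72_P566604, which overlaps O8926 in reverse, was well above background on all 61 arrays and behaved unlike either SHMT2 probe. It rose by 1.07 in LW (SE 0.15, adjusted p = 2.56e-08) and by 1.93 in MS (SE 0.16, adjusted p = 1.36e-15), and at day 110 MS exceeded LW by 0.74 (SE 0.16, adjusted p = 0.00017). The difference between its age changes in MS and LW was 0.86 (SE 0.23, adjusted p = 0.007) and was called. Within groups its deviations had r = 0.00 with those of A_72_P717188, which instead followed the array's SHMT1 probe at r = 0.72 over 61 fetuses. SHMT1 encodes the cytosolic form of the enzyme. The array gives A_72_P566604 no gene symbol, and it was not counted among the genes.

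**Figure D2:**
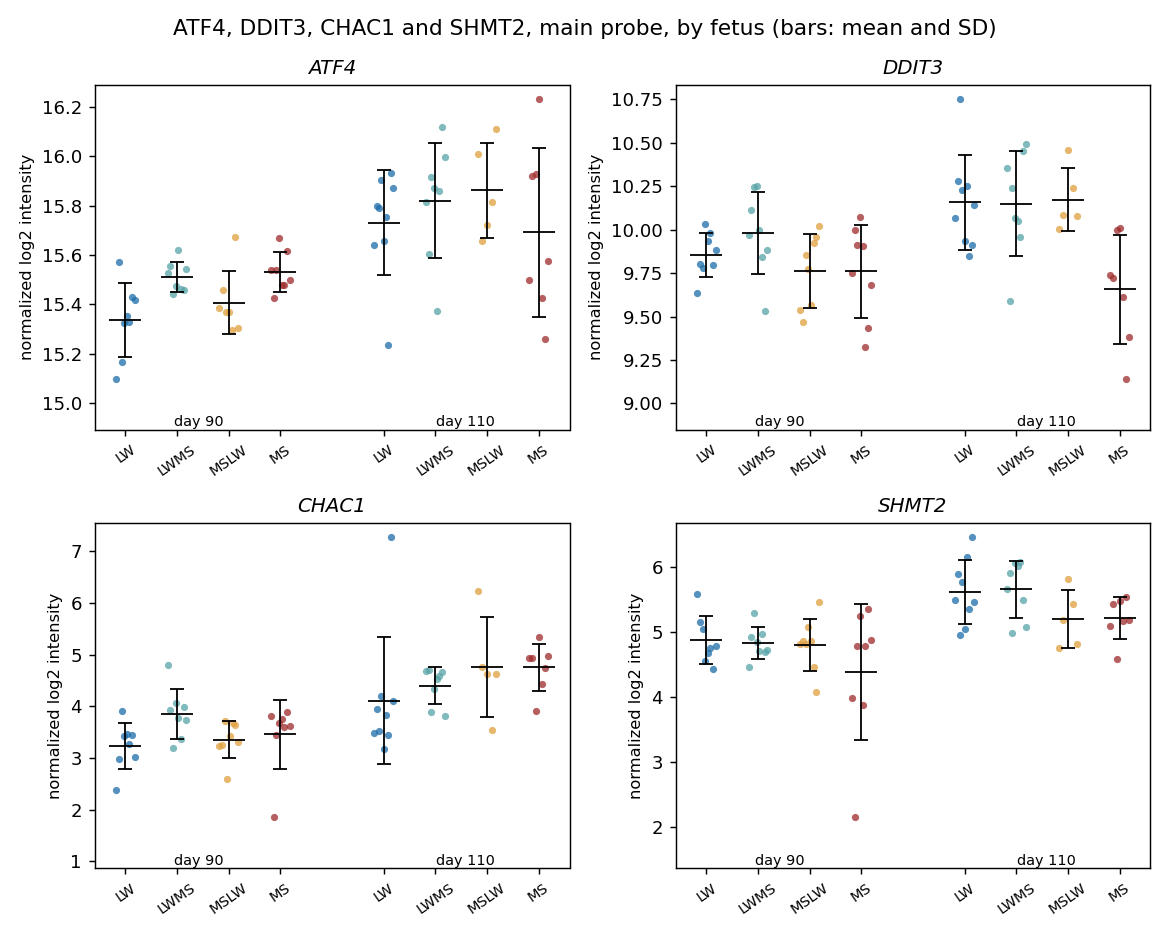
Normalized log2 intensity (vertical axis) of the main probes of ATF4, DDIT3, CHAC1 and SHMT2 in each fetus (points) by genotype and gestational day (horizontal axis), with the mean and SD of each group (black bars). ATF4 means lie between 15.34 and 15.86, and single low or high fetuses stand apart in CHAC1 (7.27 in LW at day 110) and SHMT2 (2.15 in MS at day 90).

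Counted over the 8 measured genes, the age change was called in LW for 1 gene that rose (ATF4) and 4 that fell (ASNS, PSAT1, PHGDH and PSPH), beside 21.8% of all kept probes that rose and 23.5% that fell. In MS 3 rose (ASNS, SHMT2 and CHAC1) and 1 fell (PSAT1), beside 28.6% and 28.1%. SHMT2 and CHAC1 are counted under the array's names only, as what their probes read is not settled. ATF4 is not counted in MS, where its main probe did not pass although 5 of its 7 probes did. In LWMS 2 rose (ATF4 and SHMT2) and 2 fell (PSAT1 and PSPH), beside 25.1% and 25.7%. In MSLW 1 rose (ATF4), beside 20.8%, with CHAC1 left aside because the filter kept it only through that group, and 0 fell under limma's test (0 at an unadjusted p under 0.05), beside 23.8%. With so many probes called in each direction, these shares are not far from the background. The median change of the 8 genes was -0.38 in LW and 0.40 in MS, where the medians of all kept probes were 0.03 and 0.03.

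At day 90 no difference between MS and LW was called. With limma, 0 of 8 were called in either direction (1 higher and 1 lower at an unadjusted p under 0.05), beside 6.23% of all kept probes higher in MS and 6.61% lower. PHGDH gave -0.52 to -0.03 over its 3 probes at day 90. On its main probe 5 of 8 MS fetuses lay below all LW fetuses, and 0 lay above them. This offset enters the difference of age changes given below. At day 110, 3 genes were higher in MS (ASNS, PHGDH and PSPH), beside 13.7%, and 1 was lower (DDIT3), beside 15.2%. ASNS was higher by 2.26 (SE 0.27, adjusted p = 1.03e-09), 4.77-fold. PHGDH was higher by 2.05 (SE 0.27, adjusted p = 1.69e-08), 4.15-fold, and its 3 probes ranked 101, 166 and 170 from the top among all 42436 differences, with ASNS at 121. The ASNS difference was 1.70 with the median signal, 1.69 in the deposited values and 1.40 with normexp, all called. In both genes the breeds still overlapped: 6 of 7 MS fetuses exceeded all 9 LW fetuses for ASNS, and 5 of 7 did so for PHGDH.

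PSPH was higher in MS by 0.92 (SE 0.24, adjusted p = 0.00138), 1.89-fold, with 3 of 7 MS fetuses above all LW fetuses. DDIT3 was lower by 0.50 on the log2 scale, at -0.50 (SE 0.12, adjusted p = 0.000997), with 0.71 times the LW level, but its twin probes gave -0.20 and -0.11 and were not called. For ATF4 the difference was -0.04, with a 95% interval from -0.24 to 0.16. For PSAT1 it was -0.05, with an interval from -0.48 to 0.38. Its 3 probes ran from -0.05 to 0.55, and none was called. CHAC1 was higher by 0.64 without passing (adjusted p = 0.127), but it was called, at 1.04 (adjusted p = 0.00111), when LW Fetus850 was left out.

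The arrays lay on 8 slides, each with 6 to 8 of the 8 groups. The PHGDH difference between MS and LW at day 110 was positive on 6 of the 6 slides that held both, from 1.44 to 3.06, and that of ASNS on 6 of 6, from 1.49 to 2.91. The fall in LW was seen on 7 of 7 slides for PHGDH, ASNS, PSPH and PSAT1. The PSPH difference between the breeds at day 110 was positive on 5 of 6. At day 110 the 6 fibroblast markers (COL1A1, COL1A2, COL3A1, DCN, LUM and PDGFRA) had a lower mean level in MS (12.29 to 12.61 per fetus) than in LW (13.02 to 13.51), without overlap, and 5 of 6 were called lower. These markers fell with age in every genotype (6 of 6), and 5 of 6 fell further in MS than in LW. The 8 muscle fibre markers had a higher mean level in MS at day 110 (17.03 to 17.24) than in LW (16.75 to 16.96), also without overlap. Of these, 3 of 8 were called higher and 0 lower by limma (1 lower at an unadjusted p under 0.05), and the median difference was 0.10. Their mean level was higher in MS at day 90 already, at 16.70 against 16.50 in LW, with 2 of 8 called higher and 1 lower. Fewer cells of a type and less RNA per cell cannot be told apart in whole muscle, and the part of fibroblasts and fibres in the results on PHGDH and ASNS was not tested.

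The difference between the age changes of MS and LW asks directly whether the breeds took different courses. It was called higher in MS for 2 of 8 genes, ASNS and PHGDH, beside 2.56% of all kept probes, and lower for 0 (1 at an unadjusted p under 0.05 in limma), beside 3.39%. It was 2.58 for ASNS (SE 0.38, adjusted p = 3.62e-06) and 2.58 for PHGDH (SE 0.38, adjusted p = 5.21e-06), which is 5.99-fold and 5.96-fold. The PHGDH probes ranked 10, 25 and 52 and the ASNS probe 24 among the 42436 differences. PSPH gave 0.75 (SE 0.33, adjusted p = 0.126) and PSAT1 0.43 (SE 0.30, adjusted p = 0.369). ATF4 gave -0.23 (interval -0.51 to 0.04). This comparison shares its fetuses with the comparison at day 110 and with those by age, so its calls are not separate evidence.

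In the reciprocal crosses the breeds of boar and sow are exchanged together. A difference between the crosses therefore sets the boar's breed against the sow's and gives neither alone. For PHGDH at day 110 the 5 MSLW fetuses, sired by MS, had 12.82, 12.53, 11.33, 13.61 and 13.19, and the 8 LWMS fetuses, sired by LW, lay between 10.98 and 12.63 (median 11.71). For ASNS the MSLW fetuses, in the same order, had 8.18, 7.21, 6.17, 8.03 and 8.08, and LWMS lay between 6.47 and 7.83 (median 6.95). In each of the genes 3 of 5 MSLW fetuses were above all LWMS fetuses, and the same fetus, Fetus560, was the lowest of the MSLW group. For PSPH the MSLW fetuses had 9.92, 9.34, 9.11, 10.38 and 10.28, and LWMS lay between 7.57 and 9.82 (median 8.76), with 3 of 5 MSLW fetuses above all of LWMS.

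For PHGDH the order of the means at day 110 was MSLW (12.70), MS (12.39), LWMS (11.79) and LW (10.34). Neighbours among the first 3 were not called apart by limma. MS minus MSLW was -0.30 (SE 0.32, adjusted p = 0.646), and MS minus LWMS was 0.61 (SE 0.28, adjusted p = 0.181). LWMS exceeded LW by 1.45 (SE 0.26, adjusted p = 6.08e-05), which was called. For ASNS the order was MS (7.90), MSLW (7.53), LWMS (7.04) and LW (5.65). MS against MSLW had an adjusted p of 0.548 and MSLW against LWMS one of 0.486. MS exceeded LWMS by 0.86 (SE 0.28, adjusted p = 0.0368 by limma), short of the threshold. LWMS exceeded LW by 1.39 (SE 0.26, adjusted p = 8.76e-05). Both crosses thus lay above LW for both genes. For PSPH the order was MSLW (9.81), MS (9.11), LWMS (8.65) and LW (8.19), and neither MS against LWMS (adjusted p = 0.256) nor LWMS against LW (adjusted p = 0.168) passed.

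Between the crosses at day 90 limma called 0 of 8 genes (0 at an unadjusted p under 0.05), beside 0.351% of kept probes higher in MSLW and 0.148% lower. At day 110 it called 1 higher in MSLW, PSPH, beside 0.542%, and 0 lower (0 at an unadjusted p under 0.05), beside 0.37%. The PSPH difference was 1.16 (SE 0.27, adjusted p = 0.00809). It was not called without LWMS Fetus611, Fetus622, Fetus630 or Fetus872 or without MSLW Fetus476, Fetus578 or Fetus688, when it lay between 1.00 and 1.17 with adjusted p between 0.0112 and 0.0542. The second PSPH probe, the dim O10606, gave -0.10 between the crosses at day 110 and was not called. PHGDH differed by 0.91 (SE 0.31, adjusted p = 0.103) and ASNS by 0.49 (SE 0.30, adjusted p = 0.486).

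Over all 4 genotypes, the paternal term is the mean age change of the fetuses sired by MS minus that of the fetuses sired by LW. It was called higher for 2 of 8 genes, PHGDH and ASNS, beside 0.148% of all kept probes, and lower for 0 (0 at an unadjusted p under 0.05 in limma), beside 0.349%. It was 1.72 for PHGDH (SE 0.28, adjusted p = 0.000141) and 1.59 for ASNS (SE 0.28, adjusted p = 0.00035). All 3 PHGDH probes were called, from 1.53 to 1.91. For PSPH it was 1.03 (SE 0.24), short of the threshold at an adjusted p of 0.0147, and it passed when LW Fetus575 or Fetus670, MS Fetus624 or Fetus627, LWMS Fetus874 or MSLW Fetus560 was left out (1.08 to 1.11, adjusted p from 0.00393 to 0.00812). The maternal term, defined in the same way by the sow, was called by limma for 0 of 8 genes (2 higher and 1 lower at an unadjusted p under 0.05), beside 1.11% higher and 1.81% lower. It was 0.85 for PHGDH (SE 0.28, adjusted p = 0.047) and 0.99 for ASNS (SE 0.28, adjusted p = 0.0174), which passed without LW Fetus557 or Fetus670, MS Fetus624 or MSLW Fetus476 (adjusted p from 0.00545 to 0.00975, the value at least 1.05). The difference between the paternal and the maternal term was not tested beyond the comparison of the crosses, and both terms use the LW and MS fetuses of the comparisons above. By their definition the paternal and maternal terms add up to the difference of age changes between MS and LW. A breed difference that does not depend on the parent therefore enters both, and the paternal term alone shows no effect of the boar.

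**Figure D3:**
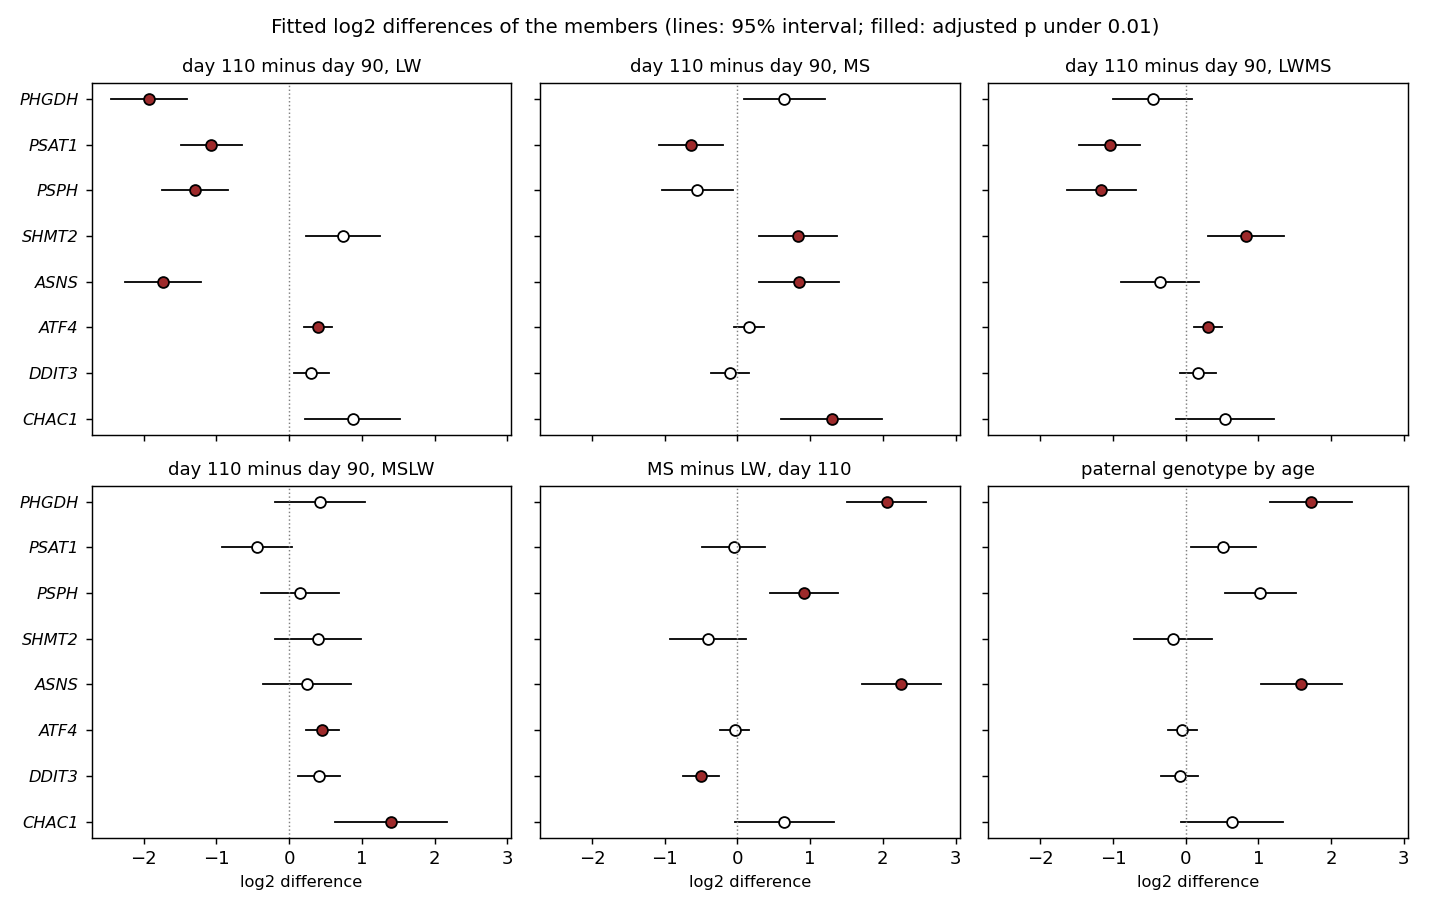
Log2 differences of the main probes (points; horizontal axis) with 95% intervals (lines) for the 8 measured genes (vertical axis) in 6 comparisons; filled points have an adjusted p under 0.01. PHGDH and ASNS fall in LW (-1.93 and -1.73) and are high in the comparison of MS with LW at day 110 (2.05 and 2.26) and in the paternal term (1.72 and 1.59).

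The fetuses of a group differed far more at day 110 than at day 90 in the serine enzymes. The SD within groups, pooled over the 4 genotypes, went from 0.26 to 0.76 for PHGDH, from 0.23 to 0.65 for PSPH, from 0.39 to 0.68 for ASNS and from 0.34 to 0.52 for PSAT1. For ATF4 it went from 0.11 to 0.25. The fit used 1 estimate of the spread per probe over all 8 groups. For these genes, comparisons within day 110 therefore have smaller SEs and adjusted p-values than the pooled spread at day 110 would give. The PSPH call between the crosses is among them. Over all kept probes the median SD was 0.25 at day 90 and 0.28 at day 110. At day 110 only 4.83% of all kept probes had a higher SD than PHGDH, 7.0% than ASNS and 7.92% than PSPH.

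These deviations ran together. At day 110 the deviations of PHGDH and ASNS from their group means had r = 0.90 and rho = 0.88 over 29 fetuses (both permutation p = 1e-05, the smallest that 100000 resamples can give; adjusted p = 0.00028 and 0.00014 over 28 pairs of genes). The 2 fetuses farthest out did not make this relation, since r without them was 0.88, and with slide effects removed it was 0.91. PHGDH with PSAT1 had r = 0.63 and rho = 0.67 (adjusted permutation p = 0.00168 and 0.00098), and PHGDH with PSPH r = 0.53 and rho = 0.58 (adjusted permutation p = 0.00905 and 0.00404). ASNS with PSPH had r = 0.67 and rho = 0.71 (adjusted permutation p = 0.000747 and 0.000373).

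The deviations of ATF4 mRNA were related to those of 3 of these enzymes at day 110. They had r = 0.71 and rho = 0.74 with PSAT1 (adjusted permutation p = 0.00056 and 0.00014), r = 0.55 and rho = 0.60 with ASNS (adjusted permutation p = 0.00788 and 0.00327), and r = 0.50 and rho = 0.52 with PHGDH (adjusted permutation p = 0.0152 and 0.0129). Without the 2 fetuses farthest from the ATF4 median these r were 0.63, 0.48 and 0.40. With PSPH r was 0.34 and did not pass (adjusted permutation p = 0.123). At day 90 the same 4 r of ATF4, over 31 fetuses, lay between -0.11 and 0.00, and of all 28 pairs only ASNS with PSPH passed on both measures (r = 0.62, rho = 0.60, adjusted permutation p = 0.00392 and 0.00924). The difference between the ages in r was not tested. Over all 61 fetuses 11 of 28 pairs passed an adjusted p of 0.05 on both measures, among them PHGDH with ASNS (r = 0.81, rho = 0.75, adjusted permutation p = 0.00014 for each). CHAC1 and SHMT2 passed with none of the other genes; with each other they had r = 0.32 (adjusted permutation p = 0.0446) but rho = 0.06 (adjusted permutation p = 0.696), and r fell to 0.16 without the 2 farthest fetuses. Littermates can share a deviation, and with the sow unknown this was not tested.

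**Figure D4:**
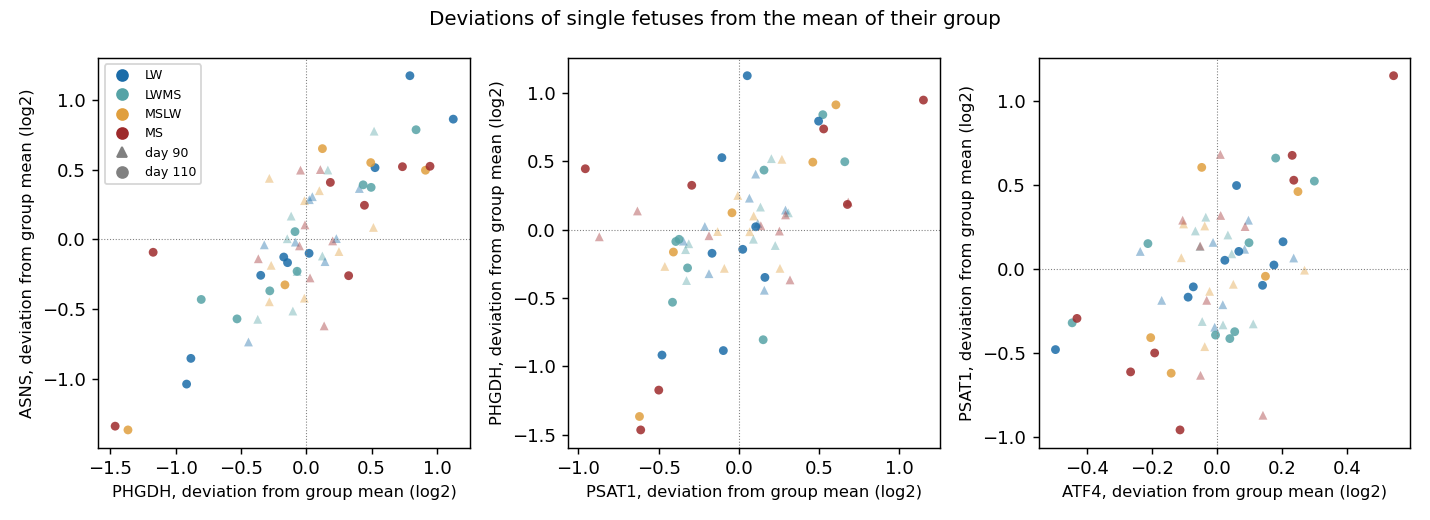
Deviation of each fetus from the mean of its group (log2, both axes) for PHGDH and ASNS, PSAT1 and PHGDH, and ATF4 and PSAT1; colours give the genotype, circles day 110 and pale triangles day 90. At day 110 the circles spread along a rising line (r = 0.90, 0.63 and 0.71), while the triangles stay near the centre.

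Among 10244 annotated genes, those whose within-group deviations were most like PHGDH over the 61 fetuses were SARS (r = 0.80), the seryl-tRNA synthetase, ARG2 (r = 0.80), the mitochondrial arginase, and PCK2 (r = 0.79), the mitochondrial PEP carboxykinase. For ASNS they were SARS (r = 0.80), ARG2 (r = 0.74) and GARS (r = 0.72), the glycyl-tRNA synthetase. For ATF4 they were SARS (r = 0.67, rho = 0.48), GARS (r = 0.63, rho = 0.48) and CDKN1A (r = 0.63, rho = 0.60), a cell cycle inhibitor. For PSAT1 they were SH3GL3 (r = 0.65, rho = 0.60), SARS (r = 0.63, rho = 0.54) and PTPN18 (r = 0.60, rho = 0.47). For PSPH they were ADAT2 (r = 0.73), a tRNA deaminase, AARS (r = 0.72), the alanyl-tRNA synthetase, and GPATCH4 (r = 0.71). SARS thus came up for 4 of the 8 genes, through different SARS probes. For CHAC1 they were RHOJ (r = 0.66, rho = 0.46), NFE2L2 (r = 0.64, rho = 0.48) and CHIC2 (r = 0.63, rho = 0.51). For DDIT3 they were MXRA5 (r = 0.53, rho = 0.58), ENPP1 (r = 0.51, rho = 0.50) and TCF7L2 (r = 0.49, rho = 0.44). For SHMT2 they were SHMT1, as given above, P2RX6 (r = 0.62, rho = 0.48) and ANXA8 (r = 0.62, rho = 0.48). These likenesses are descriptions over points that share arrays and slides.

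ARG2 and PCK2 also carried breed differences in their levels. The mean of the ARG2 probe A_72_P709160 in LW was 7.89 at day 90 and 6.46 at day 110. In MS it was 7.82 and then 11.75, a difference between age changes of 5.37 (adjusted p = 2.85e-09). At day 110 it stood at 11.51 in LWMS and 11.20 in MSLW. For PCK2 the LW means were 8.03 and 7.23 and the MS means 7.66 and 9.61, a difference of 2.74 (adjusted p = 2.7e-06).

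The wider pathway was read through 5 lists of genes that hold no member. Of 21 measured other ATF4 targets, 8 had a higher and 3 a lower level in day-110 MS muscle than in LW, beside 13.7% and 15.2% of all kept probes, and the median difference was 0.30 against 0.01 over all kept probes. The largest were PCK2 (2.38, SE 0.28), SLC3A2 (1.45, SE 0.26), the shared chain of amino acid transporters, and FGF21 (0.99, SE 0.23), a secreted stress hormone. At day 110, 4 of 9 LW arrays had FGF21 well above background. Called lower were JDP2 (-0.55, SE 0.12), SLC1A5 (-0.45, SE 0.09), a glutamine transporter, and GDF15, another secreted stress hormone. There GDF15 was well above background on 8 of 9 LW but on 2 of 7 MS arrays, so that its fitted difference of -2.09 (SE 0.44) rests on dim signals. In the difference of age changes 5 of 21 were higher and 0 lower by limma (4 lower at an unadjusted p under 0.05), led by PCK2, FGF21 (1.30, SE 0.32) and SLC7A1 (0.96, SE 0.24), an arginine and lysine transporter.

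Of 19 measured aminoacyl-tRNA synthetases, which charge tRNAs and include several ATF4 targets, 7 were higher in MS at day 110 and 0 lower by limma (1 lower at an unadjusted p under 0.05), beside the same 13.7% and 15.2%, with a median of 0.20. The largest were SARS (0.86, SE 0.14), CARS (0.60, SE 0.15) and YARS (0.45, SE 0.14). None passed in the difference of age changes by limma, although 9 of 19 were higher and 0 lower at an unadjusted p under 0.05 and the median was 0.29. Of 10 measured further serine, glycine and one-carbon enzymes, 1 was higher at day 110, SDS (1.24, SE 0.35), which breaks serine down. SFXN1 (-0.53, SE 0.10), a mitochondrial serine carrier, and MTHFD1 (-0.27, SE 0.08), the cytosolic folate enzyme, were lower, and the median was -0.27. These counts are near the 13.7% and 15.2% of all kept probes. None passed in the difference of age changes by limma (2 of 10 at an unadjusted p under 0.05).

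Of 14 measured eIF2alpha kinases, phosphatases and eIF2 subunits, 2 were higher in MS at day 110, EIF2AK4 (0.93, SE 0.29), also called GCN2, the kinase that senses uncharged tRNA, and EIF2S3 (0.65, SE 0.11), a subunit of eIF2. EIF2AK3 (-0.38, SE 0.11), also called PERK, the kinase of the endoplasmic reticulum, was lower, and the median was -0.04. These counts too are near or under the 13.7% and 15.2%. EIF2AK4 was well above background on 5 of 9 LW and 6 of 7 MS arrays. EIF2S3 stood apart at day 90 already, with a mean of 12.70 in MS against 11.97 in LW. The crosses differed likewise at day 90, at 12.70 in MSLW against 11.91 in LWMS. None passed in the difference of age changes by limma (4 of 14 at an unadjusted p under 0.05). Genes of the other endoplasmic reticulum arms, XBP1 and ATF6, lay on the opposite side: of 13 measured, 0 were higher (2 higher at an unadjusted p under 0.05 in limma) and 7 lower in MS, beside 13.7% and 15.2%, with a median of -0.31. HSPA5 (-0.89, SE 0.13), the main chaperone of the reticulum, MANF (-0.60, SE 0.14) and HSP90B1 (-0.47, SE 0.08) led them. The mean of HSPA5 was lower in MS at day 90 already, at 12.88 against 13.48 in LW. In the difference of age changes 3 of 13 were lower, HSP90B1 (-0.56, SE 0.11), HYOU1 (-0.49, SE 0.12) and CALR (-0.45, SE 0.10). The fibroblast markers, which were lower in MS too, move with this list, and their part in it was not tested.

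**Figure D5:**
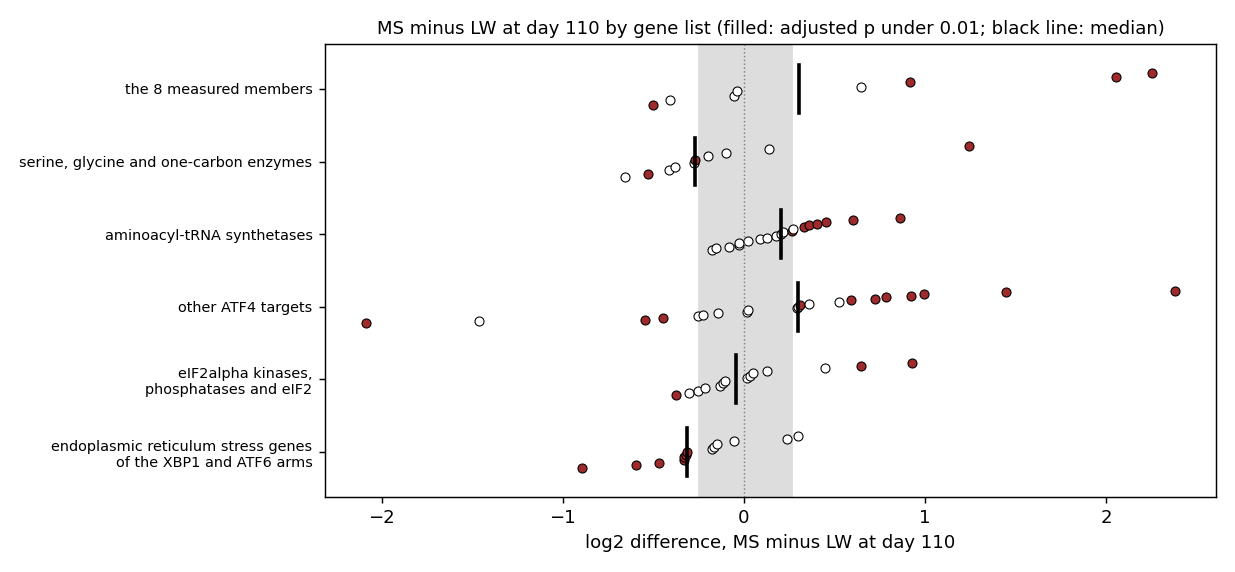
Log2 difference between MS and LW at day 110 (horizontal axis) of each measured gene (points; filled, adjusted p under 0.01) in the 8 measured genes and 5 related lists (vertical axis), with each list's median (black line) and the middle 50% of all kept probes (grey band, -0.25 to 0.26). The medians of the 8 genes and the other ATF4 targets are both 0.30 and that of the XBP1 and ATF6 list is -0.31.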

How the data were processed

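Per the labels and the study's methods, the authors hybridised Cy3-labelled RNA of each fetus to a porcine 60K array and read it with Agilent Feature Extraction 10.10.1.1. The deposited scanner intensity values are background-corrected by that software and not normalized between arrays. The deposited log2 values of the authors are quantile normalized; their rows were found to be numbered by the line of the spot in the scanner file (lowest rank correlation with the same array's median signal 1), and they served as an alternative.

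Here spots marked non-uniform were left out (4 to 802 per array), the signals were quantile normalized and taken to log2, and 1 linear model with the 8 groups was fitted with limma 3.58.1 in R 4.3.3, with Benjamini-Hochberg adjustment at 0.01 over 42436 probes. The script was tested on simulated data. The genes, the lists and the main-probe rule were chosen with earlier results of these data known. One gene of the serine, glycine and one-carbon list is not reported here, and the counts and medians of that list leave it out. Genes named from the lists are up to 3 per direction, the largest called differences between MS and LW at day 110 and between their age changes; of the likeness ranking, the 3 closest annotated genes are taken. Deviation relations use 100000 permutations. Marker lists for dividing cells, endothelium, adipocytes, macrophages and red blood cells were also measured; between MS and LW at day 110, 3 of 6, 1 of 5 and 1 of 5 of the first 3 lists were lower, 1 of 5 macrophage markers was higher, and 0 of 3 red blood cell markers were called by limma (0 at an unadjusted p under 0.05).

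Alternatives were the median signal, the deposited values, normexp correction with offset 50, scaling to the 75th percentile, no filter or detection on all arrays, marked spots kept, slide as a block, the mean over a gene's probes, main probes taken from the study's lists, a 5% threshold, a fit of LW and MS alone, and leaving out each fetus of day 110. The files' genome build was not used, and no coordinates are given. The number of arrays limits the precision.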

Additional observations from a re-analysis of the deposited data

Results flagged for a closer look

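In 9 of the 64 sets of group values tested, 1 fetus stood apart from the rest of its group by more than the 95% limit for the gap between the extreme value and its neighbour; chance gives about 1 in 20, a share of 0.05. For ATF4 these were LW Fetus686 at day 110 (15.23, next 15.64) and MSLW Fetus899 at day 90 (15.68, next 15.46). For ASNS it was MS Fetus624 at day 110 (6.56, next 7.64), and for PHGDH MS Fetus551 at day 90 (11.38, next 11.70). For SHMT2 it was MS Fetus532 at day 90 (2.15, next 3.87), which was also low for CHAC1 (1.85, next 3.45). For CHAC1 there were also LW Fetus850 at day 110 (7.27, next 4.20) and MSLW Fetus498 at day 90 (2.60, next 3.23). For DDIT3 it was LW Fetus557 at day 110 (10.75, next 10.28).

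The age changes of MS and LW differed by the test of the difference itself for ASNS (2.58, limma adjusted p = 3.62e-06) and for PHGDH (2.58, limma adjusted p = 5.21e-06).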

How the results depend on the processing

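No paired analysis was possible because each fetus has a number of its own, so no 2 groups share replicate numbers. ASNS and PHGDH were called for the difference of age changes under all 12 alternatives, at 1.65 to 2.63 and 2.49 to 2.72, and when any of the 16 LW and MS fetuses of day 110 was left out. In MS the number of the 8 genes called for an age change was 2, against 4, with the median signal, the deposited values, normexp, detection on all arrays, and LW and MS fetuses alone. In MSLW it was 1, against 2 with CHAC1 counted, with normexp. Between the crosses at day 110 it was 0, against 1, with no filter and with means over a gene's probes. At a 5% threshold LW had 8 and the maternal term 2. The causes were not tested, except that a looser threshold calls more. Leaving out 1 fetus gave 5 to 7 genes called in LW, 2 to 4 in MS, 3 to 4 in LWMS and 1 to 2 in MSLW, 4 to 5 between MS and LW and 0 to 1 between the crosses at day 110, 2 in the difference of age changes, 2 to 3 in the paternal and 0 to 1 in the maternal term. The DDIT3 difference at day 110 was -0.27 (adjusted p = 0.0593) with probe means. Scaling to the 75th percentile moved the median MS change of all probes from 0.03 to 0.13. Of the gene differences recomputed (age change in LW and in MS, MS against LW at day 110, difference of age changes, paternal term), none that was called changed sign under the processing alternatives. Among those not called, the sign turned under at least 1 of them for ATF4 and PSAT1 between MS and LW at day 110 (up to 0.23 and 0.19), for the DDIT3 change in MS (up to 0.07), for ATF4 (up to 0.06) and SHMT2 (down to -0.14) in the difference of age changes, and for ATF4 (up to 0.13) and DDIT3 (up to 0.05) in the paternal term. The dim probes of CHAC1, SHMT2 and PSPH (O10606) limit what can be read from them.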
